A study of Mus musculus with 2 samples.

Results

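Glypicans and syndecans are the cell-surface proteins that carry heparan sulfate chains, and 10 genes encode them in the mouse: the glypicans Gpc1 to Gpc6 and the syndecans Sdc1 to Sdc4. The members were chosen by gene name from the array annotation, with their ratios in this comparison already known, so their values are given as a description and no member was tested. They are 10 of 27579 genes with a usable probe, and 17 probes represent them. Total RNA of mouse embryonic fibroblasts (MEFs, connective tissue cells grown from embryos) of C57BL/6J mice was compared between LATS2-/- (KO) and LATS2+/+ (WT) cells, neither of which had been treated. The genotype field of the labels spells the gene LAT2. The medium of both held serum, and the labels do not name the embryos or cultures behind each RNA. The study's text speaks of several independent MEF lines and of littermate controls, but no label ties these 2 arrays to a line. It also names a different data series for its microarrays. That these arrays belong to its MEF experiment was taken as given. Both RNAs were hybridised together to 2 Agilent 2-colour arrays, with the KO RNA in the dye Cy5 on array 1 and in Cy3 on array 2. The arrays were taken as a dye swap of the same pair of RNAs, that is 1 replicate per genotype. The spread between them measures hybridisation and dye error, and the genotype difference has no replicate check.

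A glypican is tied to the outer face of the plasma membrane by a glycosylphosphatidylinositol (GPI) lipid anchor, whereas a syndecan spans the membrane and has a short cytoplasmic tail that binds scaffold and cytoskeletal proteins. The sulfated chains on both bind growth factors such as FGFs, BMPs, Wnts and hedgehog proteins and present them to, or hold them from, their receptors. In fibroblasts the syndecans also act with integrins in adhesion to fibronectin.

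The arrays had 41174 probes other than controls, and 40875 of them gave a value on each array. Between the log2 ratios of arrays 1 and 2, the Pearson correlation across probes was 0.899 and the Spearman rank correlation 0.626. Probes are not independent replicates. Median signals were 96.8 and 98.5 units in Cy5 and 60.1 and 58.2 in Cy3, over background medians of 30 to 36. Of 4 probes for Lats2, the targeted gene, 3 were higher on both arrays in the RNA labelled KO and 1 was lower. The 3 higher probes lie within 1226 bases of each other and the lower one 31.3 kb from the nearest of them, and which of them fall in the deleted part is not given in the sources used here. The study reports the Lats2 KO of its MEFs as borne out by western blotting, a measurement of protein that is not among these files. Because the place of the deleted part is not known here, the 4 Lats2 probes cannot be used to check the label in either direction. The words labelled KO and labelled WT are used for that reason, and each direction below depends on the labels. All 10 fibroblast markers were measured and none was called in either direction, with log2 ratios from -0.89 to 0.89. Of 6 epithelial markers only Krt19, a keratin, was measured, and it was called higher at 2.12, while Epcam, Cdh1, Krt8 and Krt18 were not well above background. The summed normalised signal of the epithelial list was 640 to 706 units in the RNA labelled KO and 397 to 427 in the RNA labelled WT. Such sums include a floor from genes that were not measured, as the endothelial list, given next, shows. Of 6 endothelial markers none was measured (393 to 415 units against 390 to 415). Of 6 neural markers 4 were measured and none called, with Map2 the lowest at -0.95 (2427 to 2463 units against 3519 to 3580). Of 6 muscle markers 2 were measured (11724 to 11817 units against 9798 to 9910), without Myod1, Myog or Des. Of 6 macrophage and blood markers 3 were measured (473 to 474 units against 473 to 483), without Ptprc. The part of other cell types in the results below was not tested.

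Among the glypicans and syndecans, 2 glypicans were lower by more than 2-fold in the RNA labelled KO: Gpc3, at 7.2% of its level in the RNA labelled WT, and Gpc1, at 40.5%. Sdc4 and Sdc2 were lower by less than that, and Gpc6 and Sdc1 were higher by less than that. The brightest probe of Gpc4 had no direction common to both arrays. A gene is called here when array 1 and array 2 both gave a log2 ratio of KO over WT of 1 or more, or both of -1 or less, and its probe was flagged well above background on both arrays in the genotype where it was higher. A gene is measured when it was well above background on both arrays in at least 1 genotype, and the probe with the highest mean signal stands for it. Of the 10 members 9 were measured, with Gpc5 the exception, and 2 were called lower and 0 higher. Over all 15877 measured genes 2.61% were called lower and 2.95% higher. Because the members were chosen with this contrast known, nothing is read from the comparison of these shares. The cells were measured in bulk, so fewer cells that express a gene and less RNA per cell cannot be told apart.

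**Figure D1:**
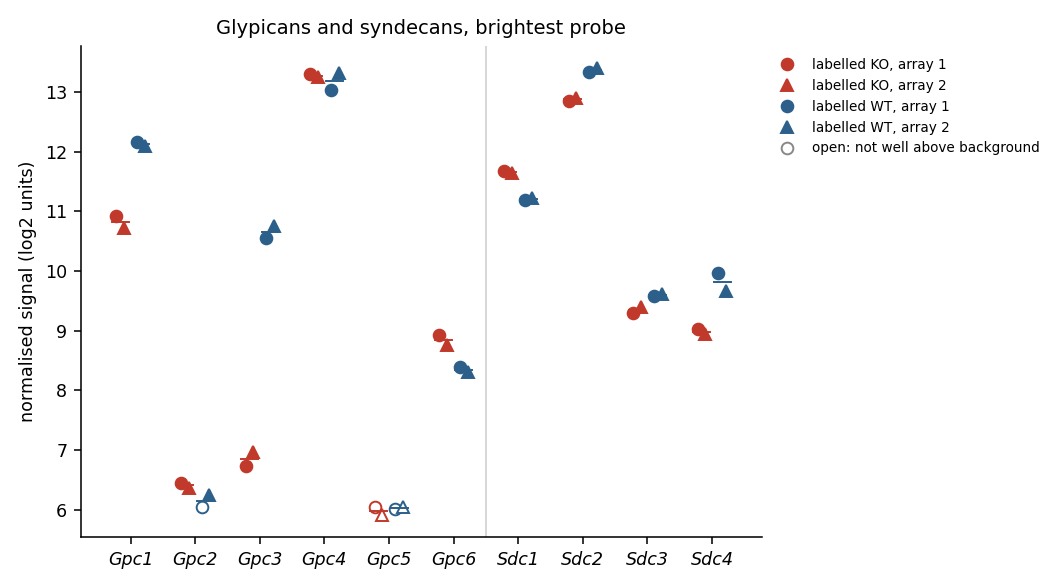
Normalised signal (log2 units) of the brightest probe of each member, with the RNA labelled KO in red and the RNA labelled WT in blue, array 1 as circles, array 2 as triangles, and a line at the mean of both arrays. Open symbols were not well above background. The KO points of Gpc3, at 6.73 and 6.97, lie far below its WT points at 10.55 and 10.75, and levels are to be compared within a gene, not between probes.

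Gpc3 binds hedgehog proteins without passing on their signal, and its loss causes an overgrowth syndrome in humans. It is represented by 1 probe on the X chromosome (mm8, 48517190 to 48517249). Its normalised log2 signal was 6.73 on array 1 and 6.97 on array 2 in the RNA labelled KO, and 10.55 and 10.75 in the RNA labelled WT. Both KO values were lower than both WT values, and the groups did not overlap. Before normalisation the KO spot read 132 units over a background of 39 on array 1 and 63.2 over 33 on array 2, and the WT spot read 1004 over 38 and 2557 over 35. All 4 readings were flagged well above background, so the KO level is a dim but measured one. The log2 ratio was -3.80, with -3.81 and -3.78 on the single arrays, which is 13.9-fold lower in the RNA labelled KO. The arrays differed by 0.04, which is a between-array SD of 0.0266, against 0.133 for 1 probe taken over all probes. In rank Gpc3 was number 7 from the lowest of the 15877 measured genes. Its size depended on the offset for dim probes: Feature Extraction's ratio, which has none, gave -4.93 (-4.72 and -5.14).

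Gpc3 has a neighbour of the same family: on the X chromosome Gpc4 lies beside it, with its brightest probe 219 kb away (mm8, 48297838 to 48297897). Gpc4 binds FGFs and Wnts. Its normalised log2 signal was 13.30 and 13.25 in the RNA labelled KO and 13.04 and 13.32 in the RNA labelled WT. The groups overlapped, because array 2 gave the higher value to the RNA labelled WT and array 1 to the RNA labelled KO. The log2 ratio was 0.09 (0.26 and -0.07). A second Gpc4 probe, at 48295779 to 48295838, gave 0.24 (0.27 and 0.20), without overlap.

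The sequences before the transcription starts of these neighbours are shown because the genes lie side by side and had such different ratios. Both are from the RefSeq annotation of GRCm38.p6, 250 bases each, 5′ to 3′ on the strand of the gene, which is the minus strand for both. Gpc3 stands at chrX:52613975-52614224 and Gpc4 at chrX:52164924-52165173. Capitals mark GC boxes (GGGCGG on either strand), the element bound by Sp1-type factors.
Gpc3: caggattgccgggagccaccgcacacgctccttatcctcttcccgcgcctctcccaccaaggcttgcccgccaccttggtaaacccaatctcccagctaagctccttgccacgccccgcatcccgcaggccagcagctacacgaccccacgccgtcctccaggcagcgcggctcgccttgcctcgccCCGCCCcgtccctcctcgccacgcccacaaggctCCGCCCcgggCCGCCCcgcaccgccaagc
Gpc4: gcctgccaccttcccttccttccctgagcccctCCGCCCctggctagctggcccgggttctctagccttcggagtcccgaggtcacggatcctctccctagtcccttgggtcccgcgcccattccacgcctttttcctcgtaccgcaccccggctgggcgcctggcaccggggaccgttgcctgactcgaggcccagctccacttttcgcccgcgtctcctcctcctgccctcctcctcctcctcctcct

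Of the 10 members, 7 had a sequence in the promoter table used (Gpc2, Gpc3, Gpc4, Gpc5, Sdc1, Sdc3 and Sdc4), and those of Gpc1, Gpc6 and Sdc2 were not analysed here. The windows ran from 250 bases before to 50 after the start. All 7 held a GC box, a motif found in 35.7% of the 32851 promoters of that length. Gpc3 and Sdc4 held 4 each, and Gpc4 held 1. The count of CpG dinucleotides was 30 in Gpc3, 22 in Gpc4 and 22 in Sdc4, against a median of 7 over all promoters, and it ranged from 14 in Sdc1 to 44 in Sdc3. The GC content of the Gpc3 window was 70.7% and that of the Gpc4 window 66.7%, against a median of 52.7%. The core of the site for TEAD factors, the DNA-binding partners of the Lats substrates YAP and TAZ, is GGAATG. It stood in 1 of the 7 windows, that of Gpc4, and in 14.7% of all promoters. TATAAA stood in 1 of the 7, that of Gpc5, and in 13.6% of all, and the AP-1 site TGANTCA in 0 of the 7 and in 7.81% of all. Each motif was searched on both strands, and in the printed stretches no other motif overlapped a GC box. The motifs were chosen after the ratios had been seen, and a match describes the letters only. The called and the uncalled member shown above differ in the number of GC boxes, and both have the GC-rich, TATA-less kind of promoter. That number does not set the called member apart. The uncalled Sdc4 held as many as Gpc3, the uncalled Gpc2, Sdc1 and Sdc3 held 3 each, and the unmeasured Gpc5 held 1.

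**Figure D2:**
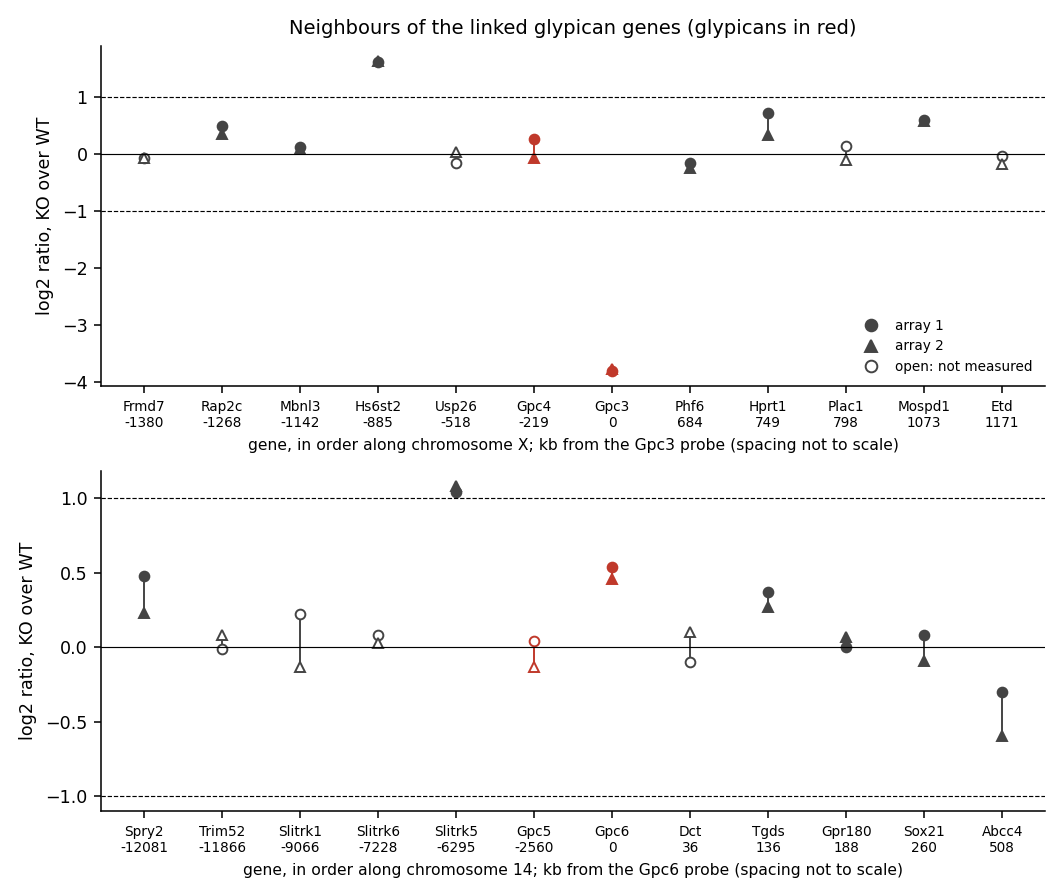
Log2 ratio of KO over WT on array 1 (circles) and array 2 (triangles) for the glypicans (red) and the 5 nearest named genes on each side, in chromosome order, with the distance in kb from the Gpc3 probe (top) or the Gpc6 probe (bottom). Open symbols were not measured and dashed lines mark 2-fold. Gpc3 at -3.80 was the only called gene in its row that was lower.

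The 5 nearest named genes on each side of the Gpc4 and Gpc3 pair were examined to see how far along the chromosome low values reached. Of these 10 genes 6 were measured, 1 was called higher and 0 lower. The gene called higher was Hs6st2, an enzyme that adds sulfate to heparan sulfate at the 6-O position, which lies 885 kb from the Gpc3 probe. Its log2 ratio was 1.63 (1.62 and 1.63), and its 3 probes ranged from 0.91 to 1.63. Under median centring Hs6st2 lost the call, with 2.57 and 0.81 and a mean of 1.69. On the other side, Phf6, a chromatin protein 684 kb away, was at -0.21, with probes from -0.88 to -0.14. The purine salvage gene Hprt1 was at 0.53, Mospd1 at 0.60, Rap2c at 0.43 and Mbnl3 at 0.11. Frmd7, Usp26, Plac1 and Etd were not measured. Because Gpc3 is X-linked, Xist, the RNA of the inactive X chromosome, was read as well, a check added after the values had been seen. Its log2 ratio was -0.08 at the brightest of 4 probes, which ranged from -0.08 to 0.41, and that probe was well above background in both RNAs. Of the Y-linked genes Ddx3y, Eif2s3y, Kdm5d and Uty none was measured.

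Gpc1, a co-receptor for FGFs, was the other called member. It is represented by 1 probe on chromosome 1 (mm8, 94690540 to 94690599), and its promoter was not in the table. Its normalised log2 signal was 10.93 and 10.73 in the RNA labelled KO and 12.16 and 12.10 in the RNA labelled WT. The KO values were both lower and did not overlap with the WT values. The log2 ratio was -1.30 (-1.24 and -1.37), or 2.47-fold lower, and rank 252 from the lowest. The call also held with Feature Extraction's ratio (-1.26 and -1.38) and was lost under plain median centring. There the mean was -1.26, and the values were -0.34 and -2.18, on arrays 1 and 2 and Gpc1 was no longer called, whereas Gpc3 at -3.21 and -4.44 was.

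Gpc6 lies beside Gpc5 on chromosome 14 and is required for normal growth of the long bones. The brightest Gpc6 probe (mm8, 116858711 to 116858770) had a normalised log2 signal of 8.93 and 8.76 in the RNA labelled KO and of 8.39 and 8.30 in the RNA labelled WT. Both KO values were higher, without overlap. The log2 ratio was 0.50 (0.54 and 0.46), or 142% of the WT level, and the second probe gave 0.52 (0.65 and 0.39). Gpc5, of the same glypican branch as Gpc3, had 2 probes on that chromosome, at 114298806 to 114298864 and at 115406024 to 115406083. Neither was well above background in any of the 4 readings, so Gpc5 has no measured ratio (fitted values of -0.05 and -0.06). Around this pair 6 of 10 named neighbours were measured, 1 was called higher and 0 lower. Slitrk5, which encodes a neuronal transmembrane protein and lies 6295 kb from the Gpc6 probe, was the gene called higher, at 1.06 (1.04 and 1.08), a call lost under median centring (1.30 and 0.90). The FGF antagonist Spry2 was at 0.36, Tgds at 0.32, Gpr180 at 0.04, Sox21 at -0.01 and the transporter gene Abcc4 at -0.45. Trim52, Slitrk1, Slitrk6 and Dct were not measured.

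Gpc2, a glypican best known from developing neurons, was near the floor of detection. Its probe on chromosome 5 (mm8, 138503888 to 138503947) read 6.45 and 6.36 in the RNA labelled KO and 6.05 and 6.25 in the RNA labelled WT, in normalised log2 units. The KO values were higher by a margin of 0.41 and 0.12, and the WT reading was well above background on 1 of 2 arrays. The mean log2 ratio was 0.26. This value moved with the processing. Feature Extraction's own ratio, which has no offset, gave 1.27 (1.21 and 1.32) and put Gpc2 past 2-fold, as did the deposited log2 table.

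The syndecans fall into a pair formed by Sdc2 and Sdc4 and a pair formed by Sdc1 and Sdc3, by sequence. Sdc4 is the syndecan of focal adhesions, where its tail activates protein kinase C alpha. The brightest of its 2 probes (chromosome 2, mm8, 164116916 to 164116975) read 9.03 and 8.94 in the RNA labelled KO and 9.96 and 9.67 in the RNA labelled WT. The KO values were lower and the groups did not overlap. The log2 ratio was -0.83 (-0.92 and -0.73), or 56.3% of the WT level, and the other probe gave -0.76 (-0.73 and -0.79). Sdc4 was therefore the uncalled member nearest to the 2-fold line, at rank 743 from the lowest. Feature Extraction's ratio put it past that line on array 1 (-1.09) and short of it on array 2 (-0.72).

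Sdc2, the main syndecan of mesenchymal cells, read 12.85 and 12.91 in the RNA labelled KO and 13.33 and 13.40 in the RNA labelled WT at its brightest probe (chromosome 15, mm8, 32979038 to 32979097). It too was lower without overlap, with a log2 ratio of -0.48 (-0.47 and -0.49), or 71.7% of the WT level. Its other probe gave -0.37 (-0.44 and -0.31). Both genes of this syndecan pair were thus lower at each of their 4 probes on both arrays, by less than 2-fold.

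Sdc1, a syndecan most abundant in epithelia and plasma cells, went the other way. At its probe (chromosome 12, mm8, 8818585 to 8818644) the signal was 11.67 and 11.65 in the RNA labelled KO and 11.19 and 11.22 in the RNA labelled WT, higher in the former without overlap. The log2 ratio was 0.45 (0.48 and 0.43), or 137% of the WT level. Krt19, the epithelial marker measured, was also higher in the RNA labelled KO, while Epcam and Cdh1 were not well above background.

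Sdc3, a syndecan of the nervous system and of cartilage, had probes that disagreed. The brightest (chromosome 4, mm8, 130098176 to 130098235) read 9.29 and 9.40 in the RNA labelled KO and 9.58 and 9.62 in the RNA labelled WT, a log2 ratio of -0.26 (-0.29 and -0.22). The second, at 130095061 to 130095120, gave 0.05 (0.12 and -0.03), and the third, which was not well above background, gave 0.04. The mean over its probes was -0.06. The direction of Sdc3 therefore depended on which probe was read.

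**Figure D3:**
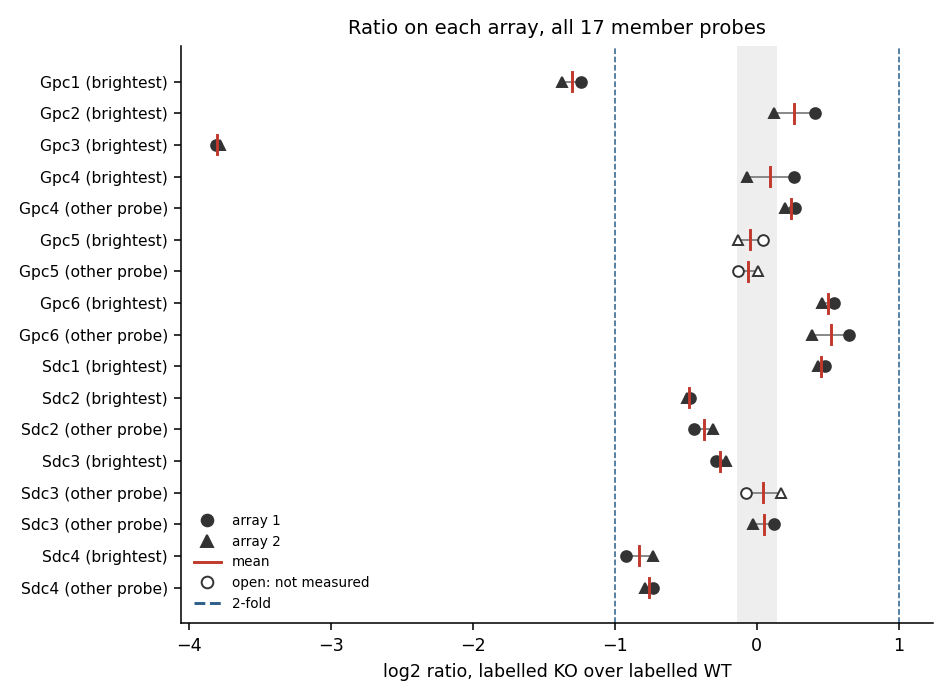
Log2 ratio of KO over WT on array 1 (circles) and array 2 (triangles) for all 17 member probes, with the mean of both arrays as a red bar. The grey band reaches 0.133, the between-array SD of 1 probe, to each side of 0, dashed lines mark 2-fold, and open symbols were not measured. The Gpc3 and Gpc1 probes lie past 2-fold, and the Sdc4 probes, at -0.83 and -0.76, come next.

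Across the 9 measured members, the SD of the mean of both arrays, 0.0943 over all probes, sets the technical error of a ratio. On that scale, at the brightest probe, 5 members were lower on both arrays (Gpc3, Gpc1, Sdc4, Sdc2 and Sdc3). Another 3 were higher (Gpc6, Sdc1 and Gpc2) and Gpc4 had no direction. The other probes of Sdc3 gave 0.05 and 0.04, and that of Gpc4 gave 0.24 (0.27 and 0.20). Gpc2 was near the floor of detection. Over all measured genes, 36.8% were lower on that scale at the brightest probe and 35.5% higher. The KO and WT signals did not overlap for 8 of the 9, and did not overlap for 76.3% of all measured genes, so non-overlap on these arrays is common. The median log2 ratio was -0.26 for the 9 members and 0.00 for all measured genes. By family, the medians were 0.09 for the 5 measured glypicans and -0.37 for the 4 syndecans.

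**Figure D4:**
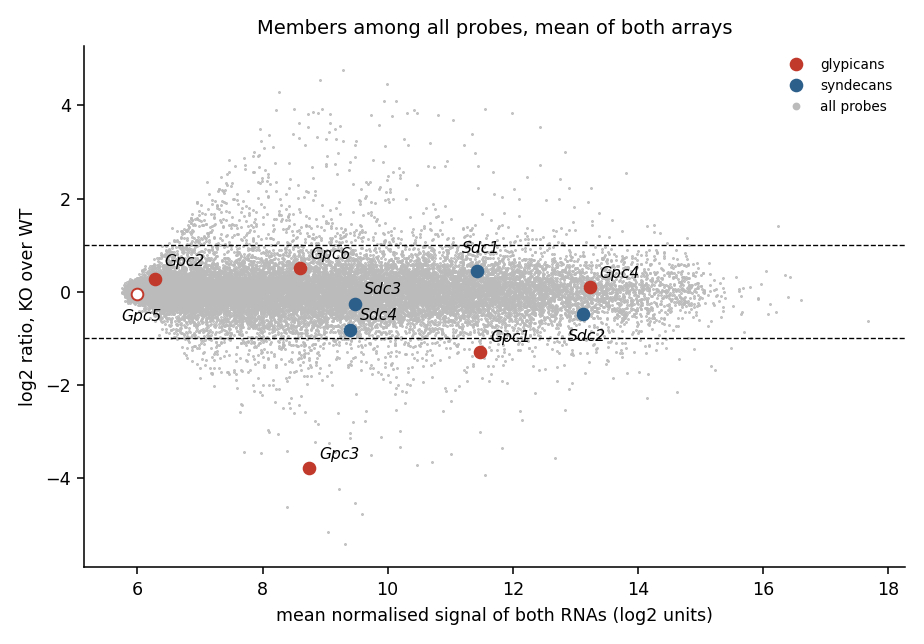
Log2 ratio of KO over WT (mean of both arrays) against the mean normalised signal (log2 units) for all probes (grey), with the brightest probe of each glypican (red) and syndecan (blue). Dashed lines mark 2-fold and the open symbol, Gpc5, was not measured. Gpc3 lies among the lowest probes of its signal range, and 7 measured members lie between the lines.

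Many functions of glypicans and syndecans depend on the chains they carry, so the genes that build, edit and read those chains were set beside them. They form 8 lists written from textbook knowledge, with earlier results of these data known. Of the 115 genes listed 87 were measured, and 7 were called higher and 8 lower, or 17.2%. Of all measured genes 5.56% were called in either direction. Because the lists were written with earlier results known, nothing is read from the comparison of these shares. The median log2 ratio over the 87 was 0.04. Under median centring, 1 of the 8 genes called lower kept the call (Agrn) and 5 of the 7 called higher did (Sulf1, Cxcl12, Bmp4, Ptn and Mmp2). The calls of Nrp2, Col18a1, Hs6st1, Hs6st2, Glce, Gli3, Gas1, Fgf18 and ezrin were lost there because 1 array fell short of 2-fold, while their means stayed past it.

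A further list held other heparan sulfate core proteins and part-time carriers. Of its 6 measured genes 3 were called lower and 0 higher. Those called were Agrn, the agrin of basement membranes, at -2.19, the neuropilin gene Nrp2 at -1.72, and Col18a1, a basement membrane collagen, at -1.62. The other neuropilin gene listed, Nrp1, was at 0.50 and not called. Whether Nrp2 carries the chains in these cells was not examined. The 3 Agrn probes ranged from -2.19 to -0.09, whereas both Col18a1 probes were past 2-fold. The perlecan gene was not analysed here.

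Of 10 measured enzymes that start or polymerise the chain, 0 were called. The lowest was Ext1, a subunit of the polymerase, at -1.04 (-1.12 and -0.96), which missed the threshold on array 2, and the highest was B4galt7, a linker galactosyltransferase, at 0.60. Among 8 measured chain-modifying enzymes 1 was called higher and 2 lower. Besides Hs6st2, the X-linked neighbour of Gpc3 and Gpc4, these were its relative Hs6st1 at -1.76 (-1.76 on each array) and Glce, the epimerase, at -1.38, though the probes of Glce reached 0.35. The 6-O-sulfotransferases Hs6st1 and Hs6st2 had calls of opposite direction, and under median centring neither was called, with means of -1.67 and 1.69.

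Enzymes that act on finished chains and core proteins included 2 of 10 called higher and 0 lower. Sulf1, an extracellular enzyme that removes 6-O-sulfate, was at 3.92 (4.01 and 3.84), and the metalloproteinase gene Mmp2 was at 1.79 (1.62 and 1.96). Furin, the convertase that cuts Gpc3, was at -0.34, with its other probe at 0.06. All 12 genes listed as cytoplasmic partners of the syndecans were measured, and 1 was called higher and 0 lower. The gene called higher was that of the linker protein ezrin, under its older array name Vil2, at 1.12. The syntenin genes Sdcbp and Sdcbp2 were at -0.50 and -0.69, though the other Sdcbp probe was at -0.04. Of 17 measured genes of GPI anchor synthesis, on which all glypicans depend, 0 were called, with Pigc lowest at -0.35 and Pigp highest at 0.71.

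Among the signals that heparan sulfate handles, 2 of 10 measured hedgehog genes were called lower and 0 higher. Gas1, a hedgehog co-receptor, and Gli3, a transcription factor of the pathway, were both at -1.47, and a second Gli3 probe was at -0.04. Ptch1, the receptor and a target of the pathway, was at 0.00 (0.08 and -0.08). Its probe was dim, with a mean log2 signal of 6.87, and the offset shrinks the ratios of dim probes. Gli1 was well above background on only 1 array in 1 RNA. Of 14 measured growth factors and chemokines that bind the chains 3 were called higher and 1 lower. The chemokine gene Cxcl12 was at 3.01 (3.14 and 2.89), Bmp4 at 2.36, the pleiotrophin gene Ptn at 1.92 and Fgf18 at -1.49.

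**Figure D5:**
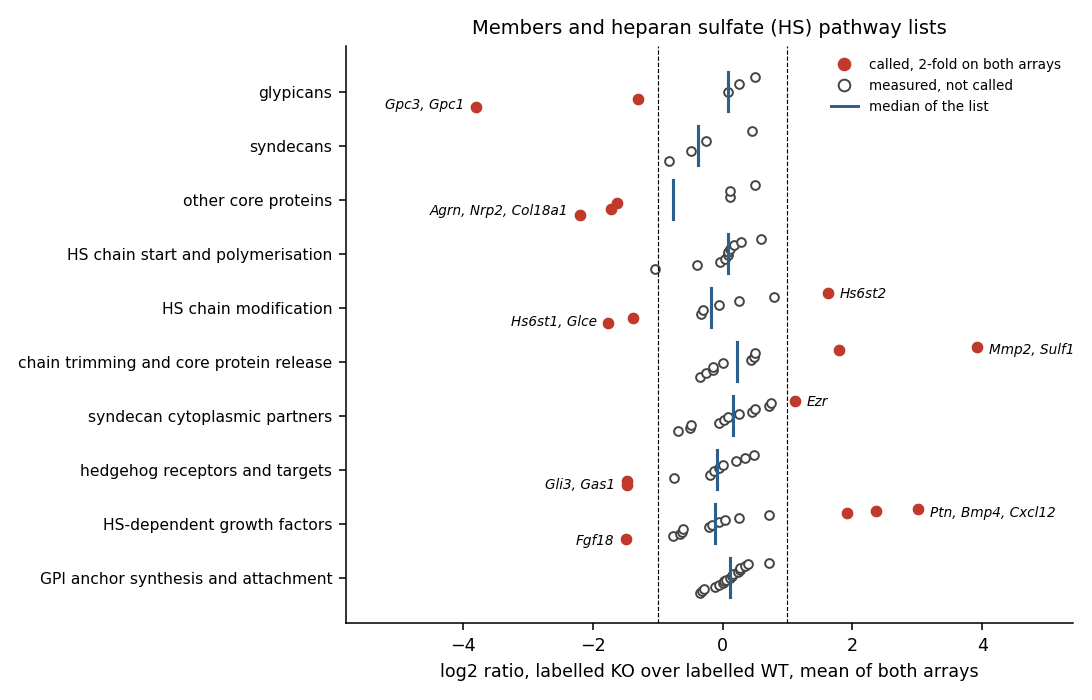
Log2 ratio of KO over WT (mean of both arrays) of every measured member and pathway gene, by list. Red points were called and are named in order from left to right, open points were not called, blue bars are list medians and dashed lines mark 2-fold. Gpc3 at -3.80 is the lowest and Sulf1 at 3.92 the highest value shown.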

How the data were processed

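Total RNA of LATS2-/- and LATS2+/+ MEFs was measured on 2 two-colour Agilent arrays. Per the file headers, both lie on the same slide and share a scan. The authors deposited spot intensity (mean signal and local background) read with Agilent Feature Extraction 10.5.1.1, per the submitters' processing notes, its log10 ratio of Cy5 over Cy3, and a table of log2 ratios. The deposited log2 values equalled log2 of the processed signals of KO over WT within 0.01 for 99.8% of probes on each array, so the table is KO over WT under the same labels.

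Using R 4.3.3 and limma 3.58.1, normexp with an offset of 50 removed the background, loess was run within each array, and ratios were turned to KO over WT. The offset shrinks the ratios of dim probes. Controls were left out, as were outlier-flagged spots (390 and 378, none of them a member's). No spot was saturated. The brightest probe stood for a gene, and the flag had to be set in a share of at least 0.5 of its spots. For the normalised signal of an RNA, the mean log2 signals of the 2 arrays were first matched in distribution by quantile normalisation. That signal is the array's matched mean log2 signal plus or minus 0.5 times the log2 ratio. Statements on overlap of KO and WT signals rest on this step, which leaves the ratios unchanged. The number of arrays limits the precision. The members and lists were chosen with earlier results of these data known, and lists were read by counts of calls. Of each list the called genes were named, or the highest and lowest where none was called, and a few more were added for their roles after their values were seen. Symbols were matched through older names and accessions in a RefSeq table of GRCm38.p6, whose promoters were scanned. Probe coordinates are those of the files (mm8, NCBI36), and whether they fall in exons, introns or untranslated regions was not examined. Alternatives were Feature Extraction's ratio, the deposited table, median centring, offset 10, no background subtraction, flagged spots kept, no background flag, the mean over probes, single arrays, the methods' t-test and limma over the arrays. The last 2 compare these RNAs, not the genotypes. Further tools were pandas 2.3.3, numpy 2.4.6, scipy 1.17.1 and matplotlib 3.10.9 under Python 3.11.15.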

Additional observations from a re-analysis of the deposited data

How the results depend on the processing

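No paired analysis was possible because the 2 arrays make up 1 replicate of each genotype. Gpc3 was called lower under every alternative except the methods' t-test after Benjamini-Hochberg adjustment, which called 0 members and 0 of all probes in either direction. With its unadjusted p, and with limma over the arrays, Gpc3 and Gpc1 were both called. Over the alternatives that give a ratio, Gpc3 ranged from -4.93 to -3.78, Gpc1 from -1.37 to -1.24 and Sdc4 from -0.92 to -0.73. Of 90 recomputed member ratios 15 moved beyond the spread between the arrays, 12 of them to a larger size and 3 to a smaller one. Counted separately, 3 of the 90 took the opposite sign (Gpc4 at -0.07 on array 2 alone, and the unmeasured Gpc5 at 0.01 and 0.04). Of these sign changes only that of Gpc4 was among the ratios that moved. No called value turned. The ratio of Feature Extraction and the deposited log2 table each called 1 member higher, Gpc2, against 0, and 13 pathway genes lower against 8. They called 1280 and 1284 of all probes higher, against 599, and 1220 and 1224 lower, against 503; these ratios carry no offset for dim probes. Median centring, which leaves the dye effect in each array, called 1 member lower, 1 pathway gene lower, 0 neighbouring genes higher (against 2), and 321 probes higher and 169 lower. When a gene's probes were averaged, 5 pathway genes were lower. For the members near background the ratio ranged widely, from 0.12 to 1.27 for Gpc2 and from -0.57 to 0.04 for Gpc5.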
